A study of Mus musculus with 10 samples.

Results

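Interferon ligands, receptors and proximal signaling genes comprised 10 members, chosen by symbol, of the 54532 genes counted in kidneys with unilateral ureteral obstruction (UUO). They were the ligands Ifnb1 and Ifng, the receptor chains Ifnar1, Ifnar2, Ifngr1 and Ifngr2, the kinases Jak1 and Tyk2, and the feedback genes Socs1 and Socs3. In male wild-type C57BL/6 mice aged 8 weeks the left ureter was ligated, and kidneys were taken after 14 days. DMM (dimethyl malonate), a malonate ester that blocks succinate dehydrogenase, was given to 5 mice on alternate days (40 mg/kg, intraperitoneal), and PBS to 5 control mice. Bulk RNA of each obstructed kidney gave 1 library per mouse, and no unobstructed kidney entered the comparison. Total counts were between 16457495 and 18078777 per control library (median 17825223) and between 15722527 and 19475833 per DMM library (median 16794390).

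Type I interferons such as interferon β bind a receptor made of the IFNAR1 and IFNAR2 chains, whereas interferon γ binds one made of IFNGR1 and IFNGR2. The bound receptors activate JAK family kinases, with TYK2 and JAK1 at the type I receptor and JAK1 and JAK2 at the interferon γ receptor, and these phosphorylate STAT proteins that carry the signal to interferon-stimulated genes. SOCS1 and SOCS3 are induced by such signals and shut them down, SOCS1 mainly at interferon receptors and SOCS3 mainly at receptors of the interleukin 6 family. In injured kidneys, infiltrating T cells and NK cells are known sources of interferon γ, and the receptor of type I interferons is found on nearly all cells.

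Several libraries stood apart. The deposited group means can be reproduced from the counts of 8 libraries, without control replicate 3 and DMM replicate 1, whose fitted weights were 0. Each comparison is therefore given over all 10 libraries and over the 8 libraries with a weight above 0. DMM replicate 1 also lay with the controls in a list of 9 interferon-stimulated genes, whose summed level was 2463 CPM (counts scaled by library size and TMM) against 1971 to 3335 CPM in controls and 278.1 to 368.5 CPM in DMM replicates 2 to 5. DMM replicate 4 held the highest or the lowest value in 69.3% of 16505 tested genes, against 9.31% to 23% for each other library. It was the highest of 10 libraries for Ifnar1, Ifngr2 and Jak1 and the lowest for the other 5 tested members. Values of the 8 libraries without DMM replicate 4, leaving 7, are thus given too. The 8 libraries lack the DMM kidney that resembled controls in interferon-stimulated genes, and the 7 also lack the kidney most often at an extreme. Adjusted p and intervals over 8 and 7 libraries do not account for this, and can make group differences look firmer than they are.

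A gene was called when it changed more than 1.5-fold with an adjusted p below 0.05, by the quasi-likelihood test of edgeR with Benjamini-Hochberg adjustment over all tested genes. Over 10 libraries 0 of 8 tested members were called, as were 0% of all tested genes (0 of 16505, with 315 higher and 678 lower more than 1.5-fold at an unadjusted p below 0.05, and 14 higher and 36 lower by DESeq2). At that unadjusted p and fold change, 1 member, Socs1, was lower over 10 libraries, against 4.11% of all tested genes. Over 8 libraries 1 of 8 tested members, Socs1, was called lower and 0 were called higher, against 3.56% of 16550 tested genes called lower. With an adjusted p below 0.05 at any fold change, 2 members, Socs1 and Ifnar2, were lower over 8 libraries, against 4% of tested genes, both with an adjusted p close to the threshold. The median log2 fold change of the 8 tested members was -0.08 over 10 libraries and -0.21 over 8, against 0.02 and 0.02 for all tested genes.

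**Figure D1:**
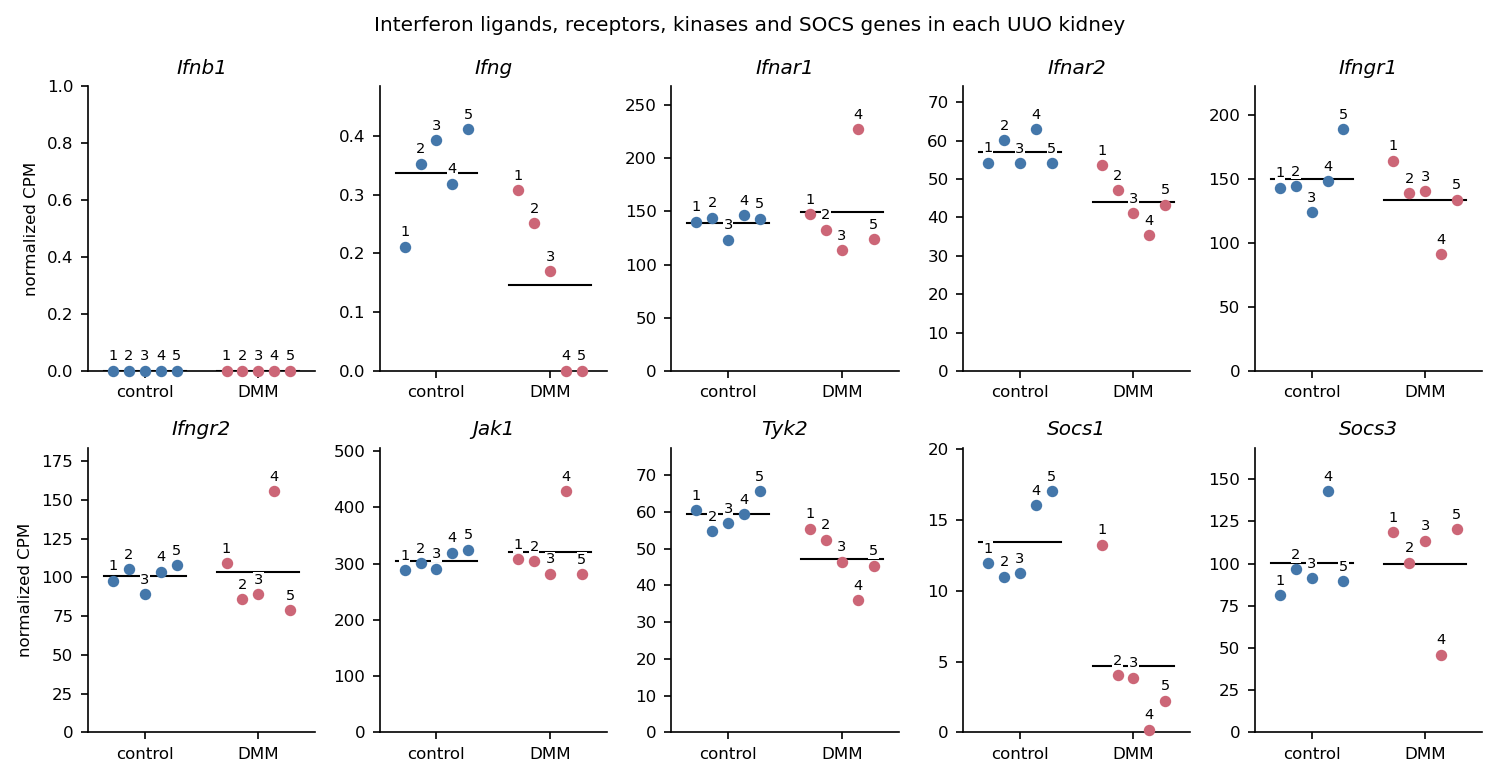
Normalized CPM of each member in every UUO kidney, with control libraries in blue and DMM libraries in red. Each point is 1 library, the number beside it is its replicate number, and the black line is the mean of the 5 libraries. Socs1 was between 10.99 and 17.03 CPM in controls and between 0.181 and 4.03 CPM in DMM replicates 2 to 5, with DMM replicate 1 at 13.2 CPM.

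The levels of the members were compared per length, as FPKM over all 10 libraries. Ifngr1 was the most abundant at 49.6 ± 8.87 FPKM (SD, n = 10), followed by Jak1 at 43.0 ± 5.9 FPKM and Socs3 at 34.5 ± 9.13 FPKM. Neighbours in this order differed by less than their spread, with Ifngr1 above Jak1 in 9 of 10 libraries and Jak1 above Socs3 in 7, whereas Ifngr1 was above Socs3 in 10 of 10. Ifngr2, below Socs3 in 9 of 10 libraries by less than their spread, followed at 27 ± 5.6 FPKM and Ifnar1 at 24.1 ± 5.18 FPKM, a difference within their spread although Ifngr2 was above Ifnar1 in 10 of 10 libraries. Ifnar2 at 15.1 ± 2.59 FPKM, Tyk2 at 7.72 ± 1.26 FPKM and Socs1 at 3.11 ± 2.06 FPKM came next, and each was below the gene before it in 10 of 10 libraries. The ligands were last, with Ifng at 0.186 ± 0.114 FPKM and Ifnb1 at 0 FPKM. Receptors and kinases were thus present in every kidney at levels far above those of both ligands.

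Ifnb1, which encodes interferon β, had 0 reads in each of the 10 libraries. A count of 0 allows up to 3 reads (one-sided 95% Poisson limit), or 0.159 to 0.189 CPM in these libraries. Ifnb1 was thus not detectable at this depth in either group, and no fold change is given. Reads are not independent molecules, and such limits cover counting error only. Of 19 other interferon genes in the table (the interferon α family and Ifnab, Ifne, Ifnk, Ifnz, Ifnl2 and Ifnl3), 16 had 0 reads in every library, and 0 reached the filter on low counts. The other 3, Ifna7, Ifnk and Ifnz, had 14 reads among them over all libraries. Genes of the interferon α family are near-identical copies of each other, so that their few reads cannot be assigned with certainty.

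Ifng, which encodes interferon γ, had 4, 6, 7, 6 and 7 reads in control replicates 1 to 5, and 5, 4, 3, 0 and 0 reads in DMM replicates 1 to 5. In CPM this was 0.211, 0.353, 0.393, 0.319 and 0.411 in controls and 0.308, 0.252, 0.17, 0 and 0 with DMM. By observed value, DMM replicates 4 and 5 were the 2 lowest libraries. The exact two-sided 95% Poisson intervals of their 0 counts reach 0.222 and 0.224 CPM, above the values of DMM replicate 3 and control replicate 1. The means and differences below take both counts as 0. DMM replicates 1 and 2 lay within the range of the controls, so that the groups overlapped. The mean was 0.337 ± 0.079 CPM (SD, n = 5) in control and 0.146 ± 0.142 CPM (SD, n = 5) in DMM kidneys, a difference of -0.191 CPM with p = 0.0317 in an exact two-sided permutation test over 252 relabelings. Over 8 libraries the difference was -0.218 CPM, with an exact permutation p of 0.0571, where 0.0286 was the smallest that 70 relabelings allow, and over 7 libraries it was -0.183 CPM with an exact permutation p of 0.0857, where none below 0.0571 was possible. With 42 reads in all 10 libraries, Ifng did not enter the test across genes. The exact p over 10 libraries was above 0.05 when control replicate 2, 3 or 5 (p = 0.0714 each), or control replicate 4, DMM replicate 4 or DMM replicate 5 (p = 0.0556 each), was left out.

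Markers of T cells and NK cells, the main known sources of interferon γ, had their lowest sums in DMM replicates 2 to 5. Summed CPM of 6 T cell markers, of which Cd4 was the most abundant, was 42.4, 45.3, 42.1, 35.9 and 63.7 in control replicates 1 to 5 and 39.6, 32, 13.3, 17.7 and 18.6 in DMM replicates 1 to 5. Summed CPM of 7 NK cell markers, of which Klrk1 was the most abundant, was 27.6, 19.7, 25.5, 24.1 and 37 in controls and 21.3, 15, 7.36, 13.5 and 10.3 with DMM. None of these 13 markers was at 0 reads in any library. The NK cell list was not uniformly low. In DMM replicate 4, Ncr1 (1.508 CPM) was above every control except replicate 3, and Klrb1c (1.93 CPM) above every control except replicate 5. Klrb1c was within the control range, 0.2938 to 1.997 CPM, in every DMM kidney. Klrk1, Nkg7, Gzma and Prf1 were below every control in DMM replicate 4, and Gzmb was there above control replicate 2 alone. Over 8 libraries 6 of 6 T cell markers had a negative log2 fold change (median -1.20) with 1 of them, Cd4, called, and 6 of 7 NK cell markers did (median -0.98) with 1, Klrk1, called. Over the 7 libraries 3 T cell and 2 NK cell markers were called lower, and 6 of 6 and 7 of 7 were below 0. In bulk kidney RNA, fewer cells of a type and less RNA per cell cannot be told apart, and the part of these cells in the Ifng values was not tested. Of 10 tested genes that induce Ifng or act in its induction, Il12rb1, Il15 and Il27 were called lower over 8 libraries, with log2 fold changes of -1.55, -0.78 and -2.77, and Il12b, Il18r1 and Stat4 differed more than 1.5-fold only at an unadjusted p below 0.05, with -2.24, -0.78 and -1.10. Over 10 libraries, 2 of them, Il12rb1 (-1.06) and Il15 (-0.59), were past that unadjusted threshold, and over the 7 libraries without DMM replicate 4, 5 of 10 were called lower.

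Among the receptors, 3 members lie side by side on chromosome 16 of mm10, all on the plus strand: Ifnar2 (91372783 to 91405589), Ifnar1 (91485238 to 91507441) and Ifngr2 (91547072 to 91565623). Il10rb, the chain shared by the interleukin 10 and interferon λ receptors, lies between Ifnar2 and Ifnar1, and the whole cluster spans 192841 bp. Ifngr1 is on chromosome 10 (19591949 to 19610229). The strand setting of the authors' counting is not given in the sources used here.

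Ifnar1, the low-affinity chain of the type I receptor, was at 140, 144, 123, 146 and 143 CPM in control replicates 1 to 5 and at 148, 133, 114, 227 and 124 CPM in DMM replicates 1 to 5. DMM replicate 4 was far above every other kidney, DMM replicate 1 was just above the controls, DMM replicates 2 and 5 were below every control except replicate 3, and DMM replicate 3 was below every control. Its log2 fold change was 0.10 (standard error 0.18, 95% confidence interval -0.29 to 0.48) over 10 libraries and 0.06 (standard error 0.21) over 8, with adjusted p = 0.835 and 0.901 by edgeR. Over the 7 libraries without DMM replicate 4 it was -0.22 (standard error 0.06, interval -0.36 to -0.07, adjusted p = 0.0355 by edgeR), so that its direction turned on 1 library.

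Ifnar2, the high-affinity chain of the same receptor, was at 54.2, 60.1, 54.2, 62.9 and 54.1 CPM in controls and at 53.6, 47.1, 41.1, 35.4 and 43.3 CPM with DMM. Every DMM kidney was below every control kidney, although DMM replicate 1 missed the lowest control by less than 1 CPM. Of the 8 tested members it alone had groups without overlap over all 10 libraries, as had 1.16% of all tested genes in the lower direction. Its mean was 57.1 ± 4.12 CPM (SD, n = 5) in control and 44.1 ± 6.77 CPM (SD, n = 5) in DMM kidneys. The log2 fold change was -0.37 (standard error 0.12, interval -0.63 to -0.11, adjusted p = 0.385 by edgeR) over 10 libraries and -0.47 (standard error 0.12, interval -0.74 to -0.20, adjusted p = 0.0489) over 8. It was thus past the adjusted threshold over 8 libraries with a fold change, 1.39 from control to DMM, that stayed under 1.5. The adjusted p over 8 libraries lay on both sides of the threshold under other choices, at 0.014 with DESeq2, 0.0521 when scaled by library size only and 0.107 with all genes that had any count, and between 0.0518 and 0.158 by edgeR in the 7 of 8 fits that left out a library other than DMM replicate 4. Without DMM replicate 4 it was -0.40 (standard error 0.08, adjusted p = 0.00605 by edgeR).

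Ifngr1, the ligand-binding chain of the interferon γ receptor, was at 143, 145, 124, 148 and 189 CPM in controls and at 164, 139, 141, 91.5 and 134 CPM with DMM. DMM replicate 4 was the lowest library and control replicate 5 the highest, and the groups overlapped over 10 libraries. Over 8 libraries every DMM value was below every control value, yet the log2 fold change of -0.31 (standard error 0.17, interval -0.68 to 0.07) had an adjusted p of 0.329 by edgeR, and over 10 libraries it was -0.16 (standard error 0.16, adjusted p = 0.692). Without DMM replicate 4 it was -0.18 (standard error 0.10, adjusted p = 0.215).

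Ifngr2, the signaling chain of that receptor, was at 97.9, 105, 89.1, 104 and 108 CPM in controls and at 109, 85.8, 89.2, 156 and 79 CPM with DMM. As for Ifnar1, DMM replicate 4 was the highest library and DMM replicate 1 came next, whereas DMM replicates 2, 3 and 5 were near or below the lowest control. The log2 fold change was 0.04 (standard error 0.17, adjusted p = 0.933 by edgeR) over 10 libraries and -0.02 (standard error 0.21, adjusted p = 0.971) over 8. Over the 7 libraries without DMM replicate 4 it was -0.29 (standard error 0.06, interval -0.44 to -0.15, adjusted p = 0.00966 by edgeR).

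In DMM replicate 4 the 2 chains of each receptor moved apart. The ratio of Ifnar1 to Ifnar2, per length in FPKM, was 3.60 in that kidney and between 1.275 and 1.604 in the other 9 libraries. For Ifngr1 over Ifngr2 it was 0.778 there and between 1.81 and 2.32 in the other 9. The 3 neighbours on chromosome 16 did not move as a block in this library, since Ifnar1 and Ifngr2 were the highest of 10 libraries and Ifnar2 the lowest. Outside DMM replicate 4, Ifnar1 over Ifnar2 was between 1.27 and 1.49 in controls and between 1.54 and 1.60 in DMM kidneys, without overlap, whereas Ifngr1 over Ifngr2 overlapped, between 1.81 and 2.32 in controls and between 1.99 and 2.24 in DMM kidneys. The ratio of the kinases, Jak1 over Tyk2, was also without overlap, between 4.528 and 5.222 in controls and between 5.275 and 5.879 in those DMM kidneys. It was 11.32 in DMM replicate 4. How often ratios of other gene pairs separate in this way was not tested.

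Jak1, the kinase shared by both receptors, lies on chromosome 4 (101152367 to 101265282, minus strand) and was at 288, 301, 291, 320 and 325 CPM in controls and at 307, 304, 282, 429 and 281 CPM with DMM. Outside DMM replicate 4 the groups overlapped, with DMM replicates 3 and 5 the lowest of the 10 libraries and DMM replicates 1 and 2 among the controls. The log2 fold change was 0.07 (standard error 0.13, interval -0.22 to 0.36, adjusted p = 0.832 by edgeR) over 10 libraries, 0.07 (standard error 0.16, adjusted p = 0.834) over 8 and -0.09 (standard error 0.07, interval -0.24 to 0.06, adjusted p = 0.336) without DMM replicate 4. It overlaps Raver2 on the opposite strand, which had a mean of 95.4 reads per library.

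Tyk2, the kinase at the IFNAR1 chain, lies on chromosome 9 (21104068 to 21131243, minus strand) and was at 60.4, 54.7, 57, 59.4 and 65.7 CPM in controls and at 55.3, 52.4, 46.4, 36 and 45.3 CPM with DMM. DMM replicate 1 alone reached the range of the controls, and DMM replicate 4 was the lowest. Means were 59.4 ± 4.12 CPM (SD, n = 5) and 47.1 ± 7.45 CPM (SD, n = 5). Its log2 fold change was -0.34 (standard error 0.12, interval -0.60 to -0.07, adjusted p = 0.388 by edgeR) over 10 libraries and -0.42 (standard error 0.13, interval -0.72 to -0.12, adjusted p = 0.103) over 8. Without DMM replicate 4 it was -0.32 (standard error 0.08, adjusted p = 0.0171 by edgeR). Of the type I receptor complex, Ifnar2 and Tyk2 were lower in DMM replicates 2 to 5 than in every control, with fold changes between the groups under 1.5. Ifnar1 and Jak1 of that complex were not, with log2 fold changes of 0.06 and 0.07 over 8 libraries. Over the 7 libraries without DMM replicate 4, Ifnar1 was at -0.22, with every DMM value below every control value. Jak1 was at -0.09 in that comparison, with overlap. Tyk2 was not past the adjusted threshold over 10 or 8 libraries. Over 8 libraries 10.6% of all tested genes had all DMM values below all control values.

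Over 8 libraries 4 members, Ifnar2, Ifngr1, Tyk2 and Socs1, had all DMM values below all control values, against 10.6% of all tested genes. Over the 7 libraries without DMM replicate 4, 6 members did, namely all 4 receptor chains, Tyk2 and Socs1, against 18.3% of 16828 tested genes. In that comparison 5 members (Ifnar1, Ifnar2, Ifngr2, Tyk2 and Socs1) had an adjusted p below 0.05 and were lower by any amount, against 13.8% of tested genes, and 1 of them, Socs1, was called, against 7.61%. Leaving DMM replicate 4 out of all 10 libraries instead, 0 genes were called, and the adjusted p of these 5 members was 0.501, 0.256, 0.419, 0.256 and 0.265 by edgeR. The median log2 fold change of the 6 receptors and kinases was -0.06 over 10 libraries, -0.16 over 8 and -0.25 over 7. Markers of other cell types also differed between libraries. Summed CPM of 6 macrophage markers, led by C1qb, was 1183, 1055, 947.4, 1105 and 1268 in control replicates 1 to 5 and 985.2, 701.6, 587.8, 485.4 and 604.1 in DMM replicates 1 to 5, and that of 6 proximal tubule markers, led by Kap, was 3521, 3540, 9141, 1291 and 2624 in controls and 2686, 7404, 5852, 4682 and 8944 with DMM. The low macrophage sum in DMM replicate 4 came mostly from C1qa (32.45 CPM) and C1qb (49.27 CPM), with Cd68 (24.37 CPM) also below every control. Adgre1 (130.5 CPM) and Csf1r (223 CPM) were there just below the lowest control, at 135.6 and 228 CPM. Itgam (25.93 CPM) was there above every control except replicate 4, so that the list was not uniformly low. The largest part of the proximal tubule sum in DMM replicate 4 was Lrp2, at 2500 CPM, higher than in any other library. Kap (1074 CPM), Slc27a2 (499.6 CPM) and Slc5a2 (36.37 CPM) were there below every control except replicate 4. Slc34a1 (473 CPM) was there above control replicates 4 and 5 alone, and Slc22a6 (99.03 CPM) was above every control except replicate 3. Of the 12 macrophage and proximal tubule markers none was at 0 reads in any library. Their part in the receptor and kinase values was not tested.

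**Figure D2:**
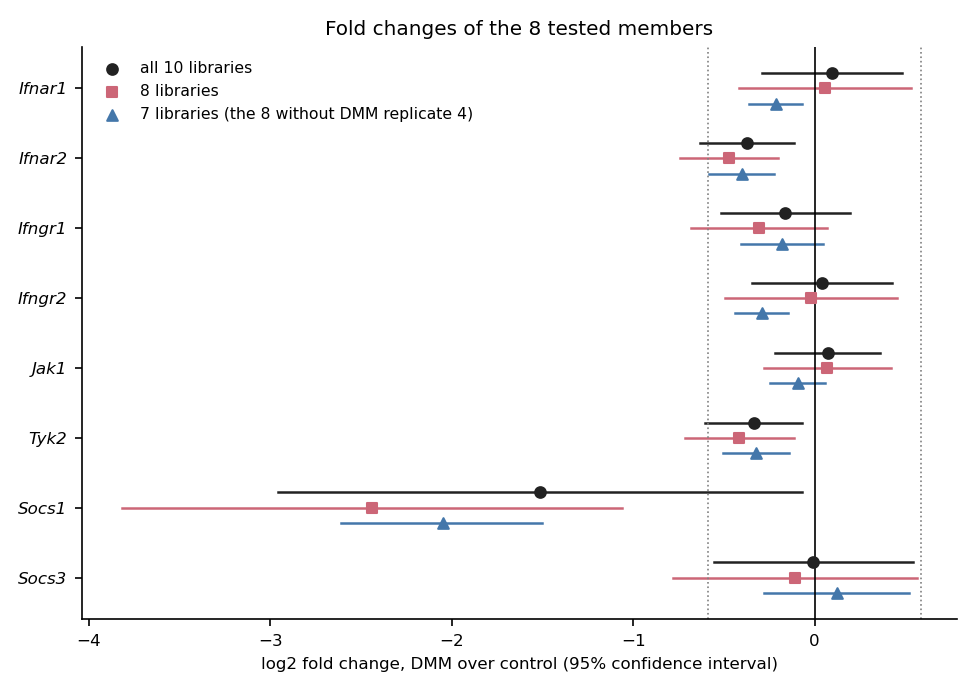
Log2 fold change of DMM over control for the 8 members that passed the filter on low counts, with 95% confidence intervals, over all 10 libraries, the 8 libraries with a weight above 0, and the 7 of these without DMM replicate 4. Dotted lines mark a fold change of 1.5. Only the Socs1 interval over 7 libraries and that over 8 lie wholly beyond the dotted line, and the estimates of Ifnar1, Jak1 and Socs3 change sign between 8 and 7 libraries.

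Socs1, a feedback inhibitor that binds JAK kinases, lies on chromosome 16 (10782240 to 10785536, minus strand). It was at 11.9, 11, 11.2, 16 and 17 CPM in control replicates 1 to 5 and at 13.2, 4.03, 3.85, 0.181 and 2.25 CPM in DMM replicates 1 to 5. DMM replicates 2 to 5 were all far below the lowest control, and DMM replicate 1 lay within the controls. The lowest value, in DMM replicate 4, came from 3 reads (exact 95% Poisson interval 0.619 to 8.77 reads, or 0.0373 to 0.529 CPM), against 37 to 68 reads in DMM replicates 2, 3 and 5 and 187 to 302 in controls. Over 8 libraries the mean was 14 ± 2.98 CPM (SD, n = 4) in control and 2.58 ± 1.79 CPM (SD, n = 4) in DMM kidneys, a fold change from control to DMM of 5.42. Its log2 fold change was -2.44 (standard error 0.61, interval -3.82 to -1.06) with an adjusted p of 0.0463 by edgeR, and Socs1 was called. Over 10 libraries it was -1.51 (standard error 0.66, interval -2.96 to -0.07, unadjusted p = 0.0415 and adjusted p = 0.44 by edgeR), and the gene was not called.

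The call of Socs1 over 8 libraries was close to the threshold by edgeR. Socs1 was also called over these libraries by DESeq2 (adjusted p = 0.000678) and by edgeR with all genes that had any count (adjusted p = 0.0302). Scaled by library size instead of TMM, its adjusted p over 8 libraries was 0.0514, and with 1 library left out it was above 0.05 for control replicates 1, 2, 4 and 5 (0.0945, 0.0979, 0.128 and 0.133) and DMM replicates 2, 3 and 5 (0.0625, 0.0885 and 0.127), all by edgeR, with log2 fold changes between -2.73 and -2.33. Without DMM replicate 4 the spread narrowed, and the log2 fold change was -2.05 (standard error 0.25, interval -2.61 to -1.50, adjusted p = 0.000703 by edgeR). Socs1, by more than 1.5-fold at an unadjusted p below 0.05, was also the only member lower over 8 libraries, against 7.24% of all tested genes.

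Socs3, the feedback inhibitor best known from interleukin 6 signaling, lies on chromosome 11 (117966079 to 117970047, minus strand). It was at 81.3, 96.5, 91.3, 143 and 89.4 CPM in controls and at 118, 101, 114, 46.1 and 120 CPM with DMM. The highest value was that of control replicate 4 and the lowest that of DMM replicate 4, while the other 4 DMM kidneys lay above the other 4 controls. The log2 fold change was -0.01 (standard error 0.25, interval -0.56 to 0.54, adjusted p = 0.992 by edgeR) over 10 libraries, -0.11 (standard error 0.30, adjusted p = 0.87) over 8 and 0.12 (standard error 0.18, interval -0.28 to 0.52, adjusted p = 0.656) without DMM replicate 4. The ratio of Socs3 to Socs1, in FPKM, was between 5.28 and 8.966 in controls and 8.997 in DMM replicate 1, and 25.1, 29.7, 256 and 53.9 in DMM replicates 2 to 5. Of 11 tested cytokines and receptors that act upstream of Socs3, Il10ra was called lower over 8 libraries (log2 fold change -1.38), and Lifr was past the unadjusted threshold alone, with 0.60. Over 10 libraries Il10ra (-0.97) alone was past it. When DMM replicate 4 was left out of the 8, 2 of 12 tested were called lower, and 6 were past the unadjusted threshold lower and 0 higher. The median was below 0 both times, at -1.08 against -0.11 for the 11 tested over 8 libraries. Its size thus differed much without 1 library, although the tested genes were also not all the same.

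By mean absolute difference of centred log2 CPM over the 10 libraries, the 5 tested genes outside the members with profiles nearest to that of Socs1 were H2-K2 (0.289 log2 units), Oas1b (0.328), Hsh2d (0.363), Dhx58 (0.369) and Bst2 (0.401), against a median of 1.37 over 16497 genes. Their log2 fold changes over 8 libraries were between -3.14 and -1.77. H2-K2 and Oas1b belong to families of near-identical genes, among which the authors' counting could split reads, so that their values are uncertain. For Socs3 they were Rasip1 (0.0596), Fdps (0.109), Slc29a2 (0.114), Cldn5 (0.117) and Wscd1 (0.125), against a median of 0.386, with log2 fold changes over 8 libraries between -0.34 and 0.01. Some of the nearest genes were at low levels, with means of 0.631 CPM for Fdps, 1.67 CPM for Hsh2d and 3.83 CPM for Slc29a2. Their profiles are less certain for that reason. No gene was among the nearest of both.

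**Figure D3:**
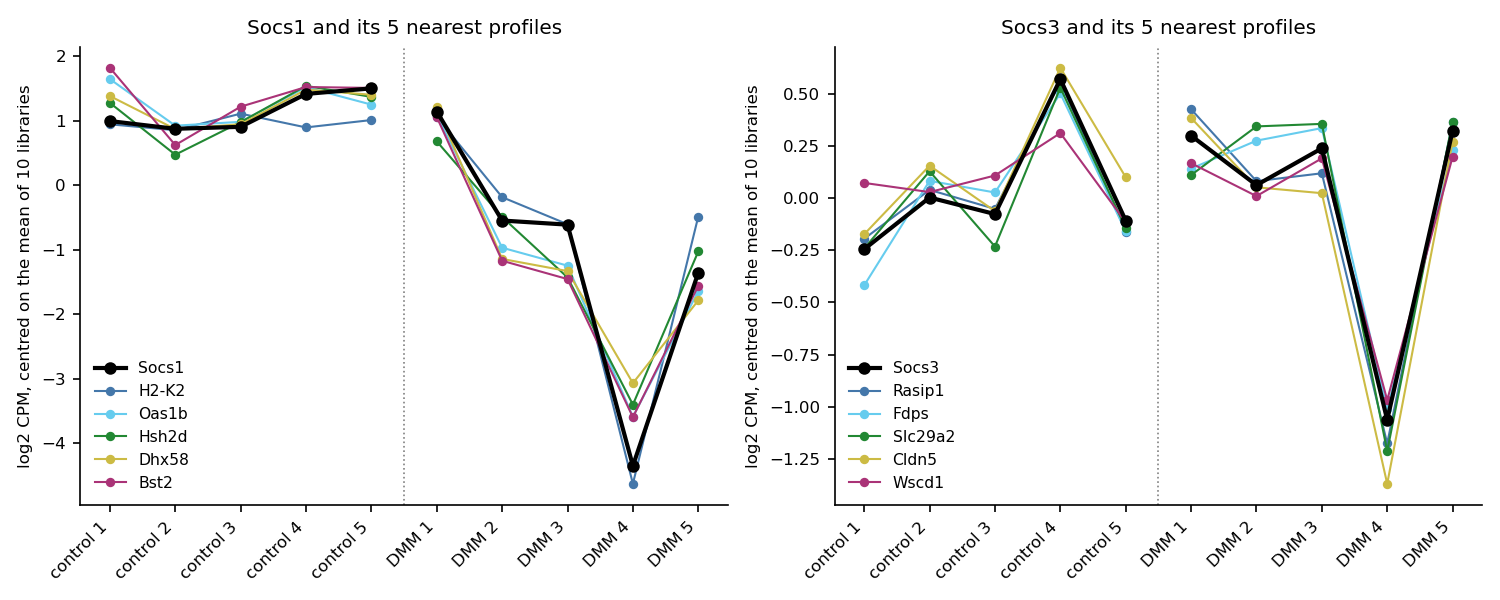
Log2 CPM of Socs1 (left) and Socs3 (right), in black, and of the 5 genes with the nearest profile to each, centred on the mean of the 10 libraries. Each point is 1 library, and lines join libraries of 1 group for legibility, since replicates have no order. Socs1 and its neighbours are low in DMM replicates 2 to 5 and at the level of controls in DMM replicate 1, whereas Socs3 and its neighbours are high in control replicate 4 and low in DMM replicate 4.

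Promoter sequences from RefSeq (GRCm38.p6, the 250 bases before the RefSeq start of each gene) matched 10 of 10 members by symbol. That of Socs3 lies within the deposited span of the gene, and that of Jak1 overlaps the deposited span in part. They were searched on both strands for TTCNNNGAA, the core of the gamma-activated sequence, and for GAAANNGAA, the core of the interferon-stimulated response element. Of 32851 promoters of this length, 7.02% held the former and 7.13% the latter. Socs1 was the 1 member of 10 with GAAANNGAA, in 2 overlapping matches on the strand of the gene that begin 83 and 77 bases before its start (GAAAGAGAA and GAAACCGAA). TTCNNNGAA was found in 3 members, as TTCAGAGAA in Ifng, TTCCTGGAA in Ifnar2 and TTCTTAGAA in the window of Socs3 inside its deposited span. Of the 5 genes nearest to Socs1 in profile, Hsh2d and Bst2 had a promoter in the table. Hsh2d held neither motif, and Bst2 held both, with 1 match to TTCNNNGAA that overlaps the first of 2 matches to GAAANNGAA. The promoters of Socs1 (chr16:10785537-10785786, minus strand) and Bst2 (chr8:71537473-71537722, minus strand) are shown because they hold GAAANNGAA, 5′ to 3′ along the gene, with the matched letters in capitals.
Socs1: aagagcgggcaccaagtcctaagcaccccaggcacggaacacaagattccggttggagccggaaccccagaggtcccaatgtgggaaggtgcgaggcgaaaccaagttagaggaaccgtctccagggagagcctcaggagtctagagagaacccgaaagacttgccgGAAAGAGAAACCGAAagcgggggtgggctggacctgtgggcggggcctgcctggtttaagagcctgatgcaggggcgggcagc
Bst2: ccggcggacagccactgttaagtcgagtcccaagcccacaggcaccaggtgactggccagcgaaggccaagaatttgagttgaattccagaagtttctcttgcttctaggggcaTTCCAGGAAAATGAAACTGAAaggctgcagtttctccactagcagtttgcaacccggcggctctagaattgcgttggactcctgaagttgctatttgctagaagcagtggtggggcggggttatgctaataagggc
A match is a description of letters, and binding was not measured.

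Of 41 other genes of the pathway in the table (19 interferons, 2 receptor chains, 2 JAK kinases, 3 STAT and IRF9 factors, 6 other SOCS genes and 9 other negative regulators), 22 were tested. Over 8 libraries 4 of these were called lower and 0 higher, the same 4 were called over 7, and over 10 libraries 0 were called, with these 4 lower by more than 1.5-fold at an unadjusted p below 0.05. They were Stat2 and Irf9, which act in type I interferon signaling, Usp18, which blocks the IFNAR2 chain, and the phosphatase gene Ptpn6. Stat2 was between 223.3 and 285.8 CPM in controls, at 259.2 CPM in DMM replicate 1 and between 42.8 and 61 CPM in DMM replicates 2 to 5. Log2 fold changes over 8 libraries were -2.39 for Stat2, -1.33 for Irf9, -3.41 for Usp18 and -0.77 for Ptpn6 (adjusted p between 0.000107 and 0.0252 by edgeR). Stat2 and Socs1 were thus both low in DMM replicates 2 to 5 and within the controls in DMM replicate 1, while the receptors and kinases differed by under 1.5-fold in the 3 comparisons. The 6 other SOCS genes had log2 fold changes between -0.27 and 0.44 over 8 libraries, Jak2 -0.06 and Jak3 -0.37, and Ifnlr1 -0.15 and Il10rb -0.20, none of them called. Without DMM replicate 4 the SOCS genes were between -0.16 and 0.27, with a median of -0.03 against 0.17 over 8 libraries. In that comparison Jak2 and Jak3 were between -0.37 and -0.19, and Ifnlr1 and Il10rb between -0.09 and -0.02, again with none called.

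Downstream of the members, all 9 interferon-stimulated genes of the list (Isg15, Ifit1, Ifit3, Mx1, Rsad2, Oasl1, Irf7, Gbp2 and Cxcl10) were called lower over 8 libraries, with a median log2 fold change of -3.46 and a range from -4.10 to -1.89. Over 10 libraries 0 of 9 were called, with a median of -1.93, and 9 of 9 were past the unadjusted threshold. Of 6 genes induced mainly by interferon γ, Cxcl9 (-2.02) and Irf1 (-1.40) were called lower over 8 libraries, whereas Ciita, H2-Aa, H2-Ab1 and Cd74, between -0.94 and -0.66, were past the unadjusted threshold alone. Over 10 libraries 0 of 6 were called, and Cxcl9, H2-Aa and Irf1 were past the unadjusted threshold. All 6 were called lower over the 7 libraries, as were all 9 of the former list. These lists were compared over libraries that the members share, so that their values are no independent check of Socs1.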

How the data were processed

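Bulk RNA-seq libraries of 5 control and 5 DMM UUO kidneys, 1 per mouse, were sequenced by the authors, who aligned the reads to mm10. HISAT2 (version 2.0.5) is named in the submitters' processing notes, whereas the counting tool, the annotation and the strand setting are not given in the sources used here. The authors deposited whole-number counts of reads per gene without normalization, and these were used for all tests. The deposited FPKM values, scaled by gene length and an effective library size, were used only to compare levels between genes. The deposited group means are a signal, the mean of counts divided by size factors, and served only to find which libraries entered them: least squares over 28001 genes gave weights that left 0 genes off by more than 0.001. The log2 fold changes and p-values of the authors' DESeq2 comparison were deposited in the same table and were not used. Gene positions and symbols were taken from that table.

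Counts were filtered by filterByExpr, scaled by TMM and tested by the quasi-likelihood F test in edgeR 4.0.16 (R 4.3.3), with Benjamini-Hochberg adjustment over 16505 genes for 10 libraries, 16550 for 8 and 16828 for 7. Standard errors were taken from the log2 fold change and its F statistic. CPM values use TMM factors of all 10 libraries. Ifnb1 and Ifng missed the filter, and Ifng was compared by an exact two-sided permutation test of mean CPM. Profiles used log2 CPM with a prior count of 2. The 20 pairs of libraries within a group all differed by more than sampling noise, with a chi-square per degree of freedom of at least 9.95. The steps were tested on simulated counts in which libraries of a group shared the expected level of each gene. Libraries that stand apart from their group were thus not simulated.

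Named genes were all 10 members, those genes of the pathway, readout and inducer lists that were called, or differed more than 1.5-fold at an unadjusted p below 0.05, in either the 10 or the 8 libraries, and the 5 nearest profiles of Socs1 and of Socs3. The Stat2 values per library were chosen after they were seen, as were the unchanged genes given singly and the comparison without DMM replicate 4. Members and lists were chosen with earlier results of these data known. Of the pathway lists, 1 gene is not reported here and is in none of their counts. Alternatives were DESeq2 1.42.0, scaling by RLE factors or by library size only, keeping genes with any count or with a mean CPM of 1, the replicate number as a block, and each library left out in turn.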

Additional observations from a re-analysis of the deposited data

Results flagged for a closer look

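In 9 of 36 groups of member CPM values, 1 library lay far from the others of its group relative to the range of the group, where chance gives about 1 in 20 such groups if they are independent. They are not, since the groups over 8 libraries reuse values of those over 10 and each library enters every gene, so that no excess over chance is read from this count. Over 10 libraries there were 4 such groups of 18. Ifnar1 in control replicate 3 was at 123.3 CPM, below 140.3 CPM in the nearest control. Jak1 in DMM replicate 4 was at 429 CPM, above 307.3 CPM in the nearest DMM kidney. Socs3 was at 143 CPM in control replicate 4, above 96.49 CPM in the nearest control, and at 46.08 CPM in DMM replicate 4, below 100.6 CPM in the nearest DMM kidney. Over 8 libraries there were 5 such groups of 18, and DMM replicate 4 was the library in 4 of them. They were Ifnar1 at 227.1 CPM, Ifngr1 at 91.49 CPM, Ifngr2 at 155.7 CPM and Jak1 at 429 CPM in DMM replicate 4, and Ifngr1 at 188.9 CPM in control replicate 5. What sets these libraries apart was not tested.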

How the results depend on the processing

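Over 10 libraries, 0 genes were called higher and 0 lower, against 14 and 36 with DESeq2 and 452 and 590 over the 8 libraries. With 1 library left out the counts were between 0 and 50 higher and between 0 and 436 lower, and they left 0 only without DMM replicate 1. Over 8 libraries, 452 were called higher and 590 lower, against 749 and 911 with DESeq2, and 276 and 700 with library size alone. With 1 library left out they were between 131 (without control replicate 5) and 1129 (without DMM replicate 4) higher, and between 276 and 1281 lower, for the same libraries. Without control replicate 1, 2 or 4 or DMM replicate 3 or 5 they were also over 1.5 times smaller, with 160 to 225 higher and 302 to 367 lower. The cause of these differences was not tested.

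With the replicate number as a block (replicate block), 0 and 0 were called over 10 libraries and 0 and 0 over 8, where only numbers 2, 4 and 5 entered, and Socs1 over these had a log2 fold change of -3.14 (adjusted p = 0.234 by edgeR, with 0.000678 to 0.234 over all alternatives), and Ifnar2 of -0.50 (adjusted p = 0.405 by edgeR). Same-numbered libraries had correlations of their deviations between -0.223 and 0.341, and 1 of 5 control libraries correlated best with its own number, so that they share only a number.

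Fold changes near 0 reversed. Over 10 libraries, library size alone gave -0.0103 for Ifnar1, -0.0629 for Ifngr2 and -0.0254 for Jak1, the filter on mean CPM gave 0.0011 for Socs3, the block gave -7.98e-05 for Ifngr2, and the 8 libraries gave -0.0188 for Ifngr2. Over 8 libraries, library size alone gave -0.0833 for Ifnar1 and -0.0599 for Jak1. With 1 library left out, log2 fold changes over 10 and over 8 libraries ranged from -0.11 to 0.18 and -0.22 to 0.17 for Ifnar1, -0.15 to 0.12 and -0.29 to 0.0844 for Ifngr2, -0.0540 to 0.12 and -0.0931 to 0.13 for Jak1, and -0.0834 to 0.18 and -0.24 to 0.12 for Socs3. Ifnar2, Ifngr1, Tyk2, Socs1 and the CPM difference of Ifng kept their direction under every alternative run. Depth limits both ligands, with 0 reads of Ifnb1 and 42 of Ifng.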

Other observations

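Neutrophil markers differed between kidneys without following the groups. Summed CPM of 4 neutrophil markers, led by S100a9, was 61.4 in control replicate 4 and 68.81 in DMM replicate 4, against 3.461 to 12.67 in the other 8 libraries, but Ly6g among them was at 0 reads in these 2 kidneys and in 4 others. These 2 kidneys held the highest and the lowest Socs3 value, in opposite directions. Markers of the loop and distal nephron (4 genes, led by Umod) had log2 fold changes above 0 in 4 of 4 over 8 libraries (median 1.08), with Slc12a1 and Slc12a3 called higher, and proximal tubule markers in 6 of 6 (median 1.36), with Lrp2 called higher. Markers of podocytes, endothelium, B cells, fibroblasts, neutrophils and plasmacytoid dendritic cells had 0 genes called over 8 libraries, with medians of -0.02, 0.03, -0.36, -0.73, 0.23 and -0.83. In macrophage markers 6 of 6 had a log2 fold change below 0 (median -0.81), with Cd68 and C1qb called lower. Without DMM replicate 4 the neutrophil median was -1.30, with 3 of 3 tested below 0, so that its direction depended on single libraries. Control replicate 4, with the high sum given above, remained in that comparison, and the neutrophil markers were not tested without it. In that comparison 2 fibroblast and 4 macrophage markers were called lower, 5 proximal tubule and 4 loop and distal nephron markers were called higher, and 0 of podocytes, endothelium, B cells, neutrophils and plasmacytoid dendritic cells were called. Over 10 libraries 0 markers of any list were called.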
